A study of Arabidopsis thaliana with 12 samples.

Results

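The genes described here encode the Polycomb machinery of *Arabidopsis thaliana* that writes, reads and removes trimethylation of lysine 27 of histone H3 (H3K27me3). They are 10 genes chosen by name: the PRC2 methyltransferases *CLF* (AT2G23380), *SWN* (AT4G02020) and *MEA* (AT1G02580), the VEFS-type subunits *EMF2* (AT5G51230), *VRN2* (AT4G16845) and *FIS2* (AT2G35670), the WD40 subunits *FIE* (AT3G20740) and *MSI1* (AT5G58230), the reader *LHP1* (AT5G17690, named *TFL2* in the annotation) and the demethylase *REF6* (AT3G48430). Of the 10, 2 have a row in the H3K27me3 count table, which holds 8286 genes, and 7 have a row in the H2A.Z count table, which holds 22249 genes. The remaining 3, *EMF2*, *VRN2* and *MSI1*, are in neither table, and 22870 genes are in at least 1 of them. A gene without a row lay outside the enriched stretches of that mark in both genotypes, so it has no count and its change could not be measured.

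Polycomb repressive complex 2 (PRC2) adds H3K27me3 to histones at genes that are to stay silent, and each complex combines a methyltransferase, a VEFS-type zinc finger protein, FIE and an MSI protein. In Arabidopsis, complexes with CLF or SWN and with EMF2 or VRN2 act in vegetative tissue and during flowering, whereas MEA and FIS2 form the complex of the female gametophyte and endosperm, and both of their genes are imprinted in the endosperm. LHP1 binds H3K27me3 through its chromodomain, REF6 removes the mark through its jumonji domain, and the histone variant H2A.Z is found both near the start of many expressed genes and over the bodies of many silent ones.

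Chromatin immunoprecipitation followed by sequencing was carried out on rosettes harvested whole at 21 days from soil-grown plants in the Col-0 background. The groups are *ref4-3*, a semidominant point mutant of the Mediator tail subunit MED5b, and wild type, with 2 biological replicates for each genotype and mark. The series has 12 samples, of which the 4 input chromatin samples were not analysed here. A rosette holds many cell types, so fewer cells that carry a mark and less of the mark per cell cannot be told apart.

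The *ref4-3* libraries held 5805781 and 8199019 fragments inside H3K27me3 regions, against 7706433 and 8466471 in wild type, and 8863116 and 7848342 fragments inside H2A.Z regions, against 9070114 and 10128759 in wild type. The chi-square per region between replicates, which is near 1 where replicates differ by counting error alone, was 2.08 in *ref4-3* and 1.13 in wild type for H3K27me3, and 1.59 in *ref4-3* and 1.08 in wild type for H2A.Z. As a check of the tissue, *AG*, *LEC1*, *FUS3* and *STM*, regulators of flowers, embryos and the shoot meristem that are silent in leaves, all had an H3K27me3 region, while *ACT2* and *UBQ10*, which are active in every tissue, had none. The leaf genes *RBCS1A* and *LHCB1.1* nevertheless had H3K27me3 regions of 200 to 400 bp, and the longer *RBCS1A* region gave 85.1 and 36.1 CPM in *ref4-3* against 57.0 and 56.2 CPM in wild type. CPM stands for the fragments of a region relative to all fragments inside the regions of that mark, after scaling of the libraries to a common size.

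Among the 10 genes, H3K27me3 lay on *MEA* and *FIS2* alone, and in all 4 libraries of that mark. The stretches shown are the 250 bases before each annotated start, read from the TAIR10.1 assembly of RefSeq, because the H3K27me3 islands of these genes begin there. Islands are the enriched stretches that the authors called. Capitals mark the bases inside the islands called from the merged replicates, whose borders here were the same in both genotypes and fall on steps of 200 bp.
MEA chr1:544483-544732: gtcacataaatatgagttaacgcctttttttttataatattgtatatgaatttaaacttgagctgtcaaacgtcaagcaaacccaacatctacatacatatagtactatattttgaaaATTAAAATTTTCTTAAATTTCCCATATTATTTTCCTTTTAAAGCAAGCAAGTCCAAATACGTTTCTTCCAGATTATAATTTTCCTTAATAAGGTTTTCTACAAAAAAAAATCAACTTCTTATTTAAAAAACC
FIS2 chr2:14992315-14992564: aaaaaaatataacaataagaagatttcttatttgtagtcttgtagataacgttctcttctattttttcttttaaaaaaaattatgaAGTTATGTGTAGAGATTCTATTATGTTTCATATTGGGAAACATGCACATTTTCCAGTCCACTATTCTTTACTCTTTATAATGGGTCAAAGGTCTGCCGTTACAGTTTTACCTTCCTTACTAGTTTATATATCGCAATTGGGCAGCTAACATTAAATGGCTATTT

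*MEA* occupies positions 544733 to 549202 of chromosome 1 on the plus strand, and the merged H3K27me3 island ran from −132 to 5067 bp relative to its start in both genotypes, past the end of the gene. All 4470 bp of *MEA* thus formed 1 H3K27me3 region, of which 46.3% is coding sequence, 6.06% untranslated region (UTR) and 47.6% intron. In single libraries the island had the same borders in both *ref4-3* replicates and in the second wild-type replicate, and it began later, at 668 bp, in the first wild-type replicate. *FIS2*, at positions 14992565 to 14996756 of chromosome 2 on the plus strand, carried H3K27me3 in 2 pieces, from the start to 435 bp and from 836 to 3435 bp into the gene. The pieces together covered 72.4% of its 4192 bp. In the first *ref4-3* replicate they were joined into 1 island, from −164 to 3435 bp, and they were separate in the other 3 libraries.

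H2A.Z lay on the same 2 genes in all 4 libraries, but in the single-library lists not at the start. On *MEA* the H2A.Z region ran from 868 to 4267 bp into the gene, with identical borders in all 4 single-library lists, and covered 76.1% of the gene. On *FIS2* the longer H2A.Z region ran from 1036 to 4035 bp. A shorter one, from 36 to 435 bp, came from the merged wild-type list and was in no single-library list. Together the *FIS2* regions covered 81.1% of the gene. For comparison, the median protein-coding gene with both marks was covered by H2A.Z over 88.7% of its length (6785 genes), and its first H2A.Z region began at 0 bp from the gene start. *MEA* was at percentile 32.5 and *FIS2* at percentile 38.7 of that coverage.

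**Figure D1:**
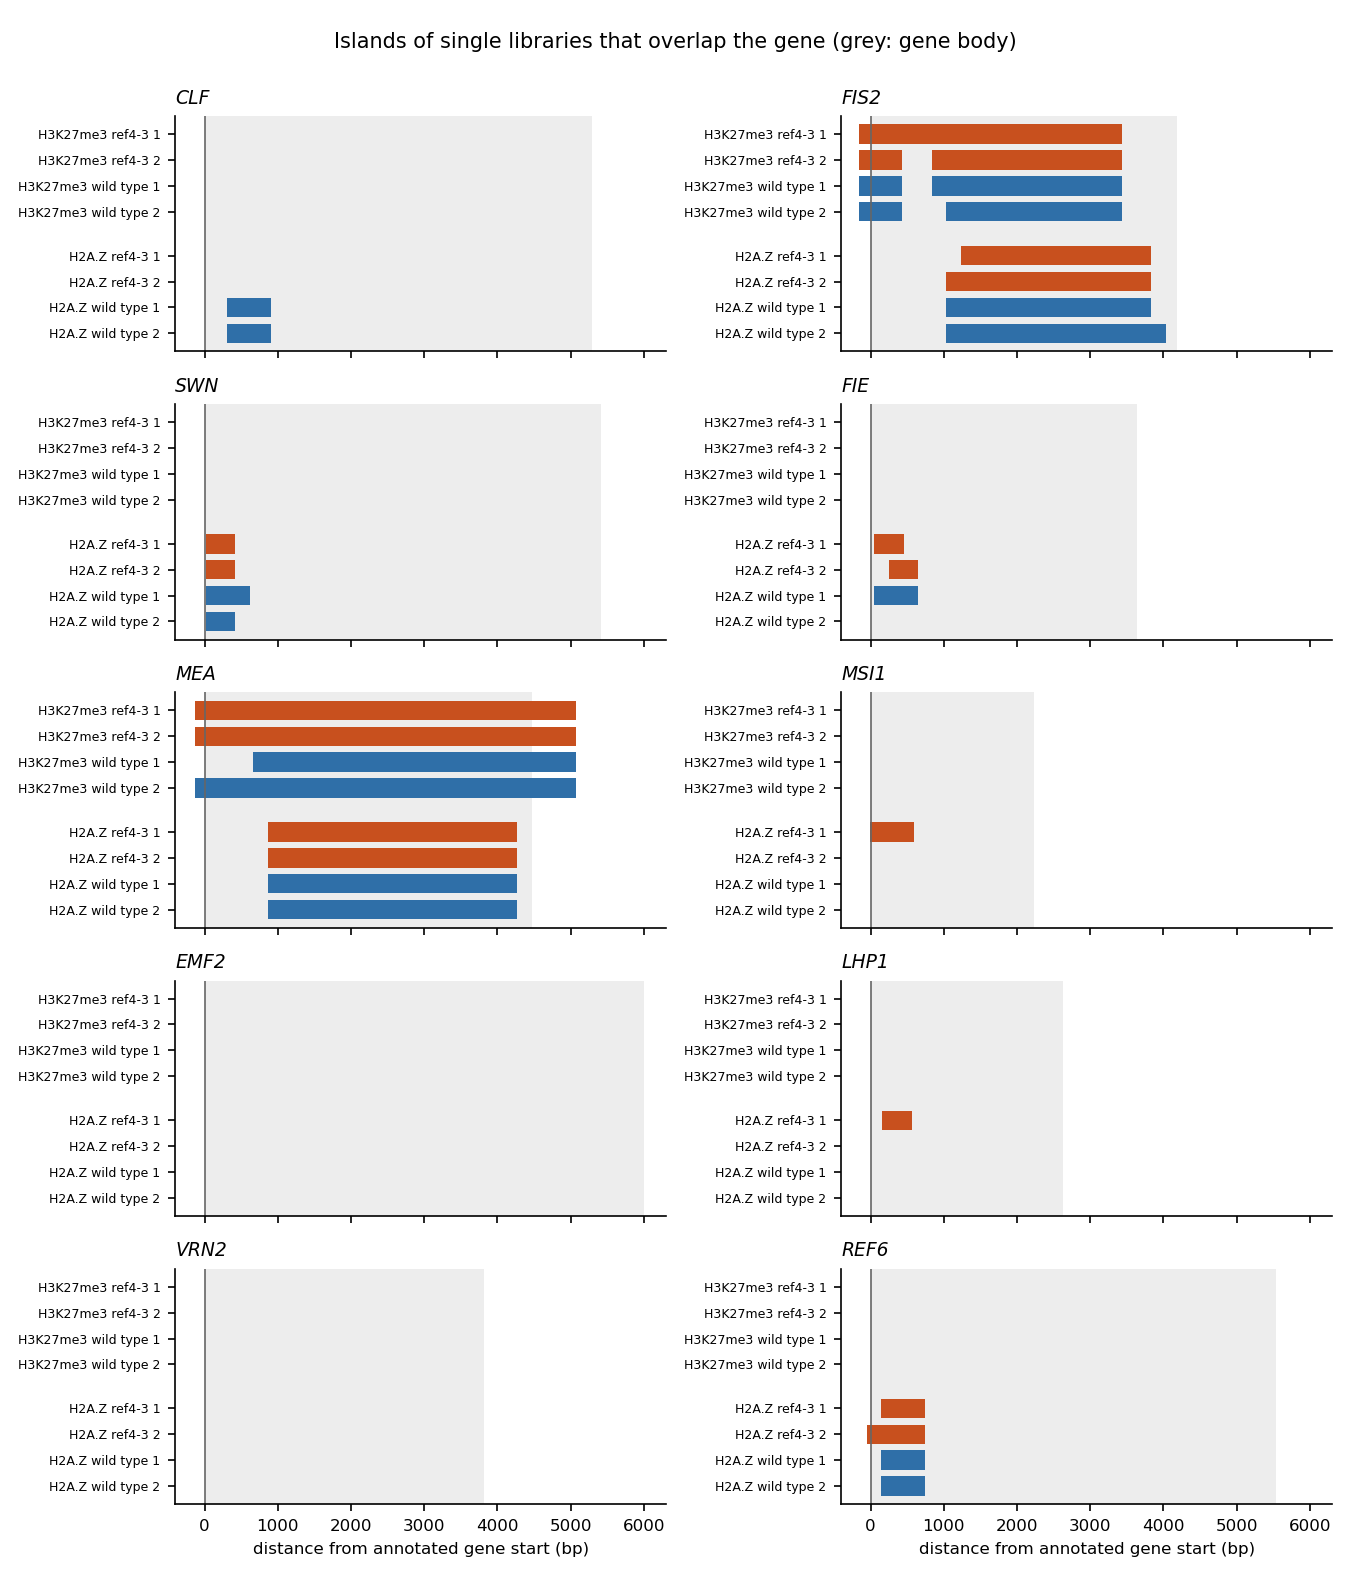
Islands of the 4 H3K27me3 and 4 H2A.Z single-library lists that overlap each of the 10 genes, drawn as bars over distance from the annotated gene start in bp (orange, *ref4-3*; blue, wild type; grey, gene body; numbers are replicates). *MEA* and *FIS2* are covered by both marks in every library, *EMF2* and *VRN2* by neither, and the H2A.Z bars of the other genes are short and lie close to the start.

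The other 5 genes with H2A.Z had no H3K27me3 region, and their H2A.Z regions were short and close to the start. *CLF* had a region of 600 bp from 309 to 908 bp, *SWN* one of 400 bp from 21 to 420 bp, *FIE* one of 600 bp from 52 to 651 bp, *LHP1* one of 400 bp from 163 to 562 bp and *REF6* one of 600 bp from 145 to 744 bp. These regions covered 7.40% of *SWN*, 10.8% of *REF6*, 11.3% of *CLF*, 15.3% of *LHP1* and 16.5% of *FIE*. The median over all 13316 protein-coding genes with H2A.Z alone was 43.0%, with a median region of 797 bp and a first region that began 52 bp from the start. All 5 genes were thus covered less than that median, a difference given here as a description without a test. The genes were not matched for length, and the part of gene length in the covered share was not tested. *CLF*, *SWN* and *REF6* are 5295, 5408 and 5537 bp long, and *FIE* and *LHP1* are 3644 and 2622 bp long. The 5 regions held from 14.3% (*SWN*) to 84.3% (*LHP1*) coding sequence and from 15.8% (*LHP1*) to 34.7% (*REF6*) UTR. The *SWN*, *CLF* and *FIE* regions also held intron, at 62.8%, 46.2% and 46.2% of their length, and those of *LHP1* and *REF6* held none.

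**Figure D2:**
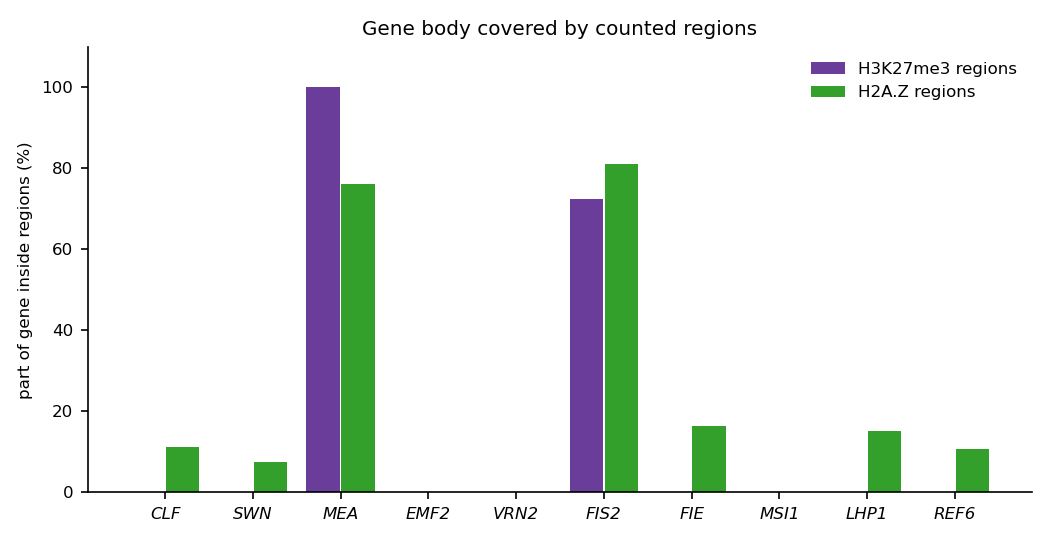
Part of each gene body inside counted H3K27me3 regions (purple) and H2A.Z regions (green), in percent. *MEA* reaches 100% and *FIS2* 72.4% for H3K27me3, and no H2A.Z bar of the other genes exceeds the 16.5% of *FIE*.

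The absence of H3K27me3 from the other 8 genes held under each overlap rule tried. With an overlap of at least 1 bp or at least 500 bp in place of 200 bp, with the lowest-scoring islands left out, with 500 bp before the start added or with any single library's list, the genes with H3K27me3 were *MEA* and *FIS2*. *FIE* came closest to carrying it: an H3K27me3 island ended 349 bp upstream of its start in both merged lists and lay over *GATA29* and AT3G20760. That island reached into the added 500 bp before *FIE*, but by less than the 200 bp still required there. The next closest was *LHP1*, whose nearest island was 1638 bp upstream in *ref4-3* and 1438 bp upstream in wild type, over AT5G17700. For *EMF2* the distance was 2844 bp in both genotypes, to an island over the oleosin gene *OLEO3*. For *CLF*, *SWN*, *VRN2*, *MSI1* and *REF6* it was between 4415 and 41356 bp.

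Among all 27444 protein-coding genes, 25.8% had an H3K27me3 region and 73.2% an H2A.Z region. Of the 3 genes in neither table, *EMF2* had its nearest merged H2A.Z island 444 bp upstream, over AT5G51220, and *VRN2* had its own 869 bp upstream, both at the same distance in *ref4-3* and wild type. *MSI1* was different, since the first *ref4-3* replicate had an H2A.Z island on it from −11 to 588 bp. The second *ref4-3* replicate and both wild-type replicates had none there, and neither did the merged lists.

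Presence in the single-library lists varied more for H2A.Z. *SWN* and *REF6* had an island in 2 of 2 *ref4-3* and 2 of 2 wild-type libraries. *FIE* had one in 2 of 2 *ref4-3* libraries and 1 of 2 wild-type libraries, and *LHP1* in 1 of 2 *ref4-3* libraries and 0 of 2 wild-type libraries. *CLF* showed the opposite pattern, with an island in 0 of 2 *ref4-3* libraries and 2 of 2 wild-type libraries. The merged lists of both genotypes nevertheless held the *CLF* island, with 400 bp in *ref4-3* and 600 bp in wild type. Of all H2A.Z regions, 2.07% were in both wild-type lists and neither *ref4-3* list. Both *ref4-3* libraries held fewer H2A.Z fragments than either wild-type library, and the part of depth in this pattern was not tested.

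The methyltransferase genes were compared first. *MEA* had 549 and 566 CPM of H3K27me3 in *ref4-3*, against 558 and 558 CPM in wild type. The *ref4-3* libraries lay on either side of the wild-type ones, so the groups overlapped. The fold change was 1.00, with a 95% interval of 0.952 to 1.05 (log2 −0.00043, SE 0.036), and the region was not called by edgeR's exact test (FDR 0.997). A region was called at an FDR below 0.05 and a fold change above 1.2 in either direction, which held for 13% of all 8663 H3K27me3 regions and for 0 of the 3 on these genes. The interval for *MEA* thus excludes a change of 1.2-fold relative to the other H3K27me3 regions, on which the scaling rests. No H3K27me3 region of these genes had an unadjusted p below 0.05, and edgeR's quasi-likelihood test and DESeq2 called 0 of the 3 as well.

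H2A.Z on *MEA* was at 103 and 114 CPM in *ref4-3*, against 106 and 107 CPM in wild type. The groups overlapped here too. A fold change of 1.02 was estimated (95% interval 0.934 to 1.11, FDR 0.898 by edgeR's exact test). Among the vegetative methyltransferases, *CLF* had 17.4 and 14.6 CPM of H2A.Z in *ref4-3*, against 18.6 and 17.7 CPM in wild type. Both *ref4-3* libraries were below both wild-type libraries, by a margin smaller than the gap between the *ref4-3* replicates. The fold change of 0.886 (95% interval 0.744 to 1.06, FDR 0.507 by edgeR's exact test) was not called. The merged *CLF* island was 400 bp long in *ref4-3* and 600 bp in wild type. Part of the counted region thus came only through wild type, the group where it was higher, so its direction carries less weight. *SWN*, which acts partly in place of CLF, had 17.2 and 18.1 CPM in *ref4-3*, against 15.1 and 17.1 CPM in wild type. Both *ref4-3* libraries were higher, the first by a narrow margin, and the fold change of 1.09 (95% interval 0.914 to 1.30, FDR 0.694 by edgeR's exact test) was not called.

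*FIS2*, the VEFS-type partner of MEA in the seed, was the other gene with both marks. Its first H3K27me3 region, at the start of the gene, had 30.5 and 27.6 CPM in *ref4-3*, against 29.3 and 24.1 CPM in wild type. These values overlapped, and the fold change of 1.08 (95% interval 0.915 to 1.29, FDR 0.556 by edgeR's exact test) was not called. Its second H3K27me3 region had 106 and 105 CPM in *ref4-3*, against 107 and 115 CPM in wild type. Here both *ref4-3* libraries were lower, which made it 1 of 3 regions on these genes whose groups did not overlap, against 61.9% of all H3K27me3 regions. The fold change was 0.949 (95% interval 0.871 to 1.03, FDR 0.433 by edgeR's exact test).

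The H2A.Z regions of *FIS2* gave a similar picture. The shorter one, at the start, had 13.1 and 14.2 CPM in *ref4-3*, against 15.6 and 14.7 CPM in wild type, which did not overlap. This region was counted only through the merged wild-type list, the group where it was higher, so its direction carries no weight. Its fold change was 0.900 (95% interval 0.744 to 1.09, FDR 0.637 by edgeR's exact test). The longer one, over the gene body, had 87.7 and 98.1 CPM in *ref4-3*, against 95.7 and 96.8 CPM in wild type. The *ref4-3* replicates spanned the wild-type values, and the fold change of 0.963 (95% interval 0.882 to 1.05, FDR 0.747 by edgeR's exact test) was not called. The vegetative VEFS-type genes *EMF2* and *VRN2* had no counts in either mark.

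Of the WD40 subunit genes, *FIE*, which PRC2 complexes of all types share, had the largest H2A.Z fold change of the 10 genes. It had 18.4 and 19.7 CPM in *ref4-3*, against 17.1 and 13.9 CPM in wild type. Both *ref4-3* libraries were higher, and the wild-type replicates differed from each other by more than the *ref4-3* ones. The merged *FIE* island was 600 bp long in *ref4-3* and 400 bp in wild type. Part of the counted region thus came only through *ref4-3*, the group where it was higher, so its direction carries less weight. The fold change was 1.23 (95% interval 1.03 to 1.47). With edgeR's exact test the unadjusted p was 0.0215 and the FDR over all 24960 H2A.Z regions was 0.176, so the region was not called. Leaving out the libraries in turn moved the log2 fold change of 0.30 to between 0.15 (without the second wild-type replicate) and 0.45 (without the first). *MSI1*, the other WD40 subunit, had no counts.

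The reader gene *LHP1* had 15.6 and 15.1 CPM of H2A.Z in *ref4-3*, against 14.0 and 13.5 CPM in wild type. Both *ref4-3* libraries were higher and the groups did not overlap. At a fold change of 1.12 (95% interval 0.927 to 1.35, FDR 0.621 by edgeR's exact test) the region was not called. The demethylase gene *REF6* had 23.8 and 22.9 CPM in *ref4-3*, against 19.2 and 20.0 CPM in wild type. Again both *ref4-3* libraries were higher, by more than either replicate gap. The fold change was 1.19 (95% interval 1.01 to 1.39), with an unadjusted p of 0.0327 and an FDR of 0.218 by edgeR's exact test, so *REF6* was not called either.

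Over the 8 H2A.Z regions of these genes, 5 were higher and 3 lower in *ref4-3*, and 0 were called by edgeR's exact test, where 4.28% of all H2A.Z regions were. An unadjusted p below 0.05 was given for 2 of the 8, and edgeR's quasi-likelihood test and DESeq2 also called 0. The groups did not overlap at 6 of the 8, against 48.2% of all H2A.Z regions. The short *FIS2* region, which is among those 6 and among the 3 lower ones, was counted only through the merged wild-type list. The *CLF* and *FIE* regions, also among those 6, were counted in part only through the genotype where they were higher. The median log2 fold change was 0.075 for the 8 regions and −0.0012 for all regions, and for H3K27me3 it was −0.00043 for the 3 regions and 0.00029 for all. The standard error set what could be seen. On *MEA* and the longer *FIS2* regions the 95% intervals exclude a change of 1.2-fold for both marks. On the regions of 400 to 600 bp, which include all of those on *CLF*, *SWN*, *FIE*, *LHP1* and *REF6*, the intervals reach past 1.2-fold in 1 direction, so a change of that size was neither called nor excluded.

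**Figure D3:**
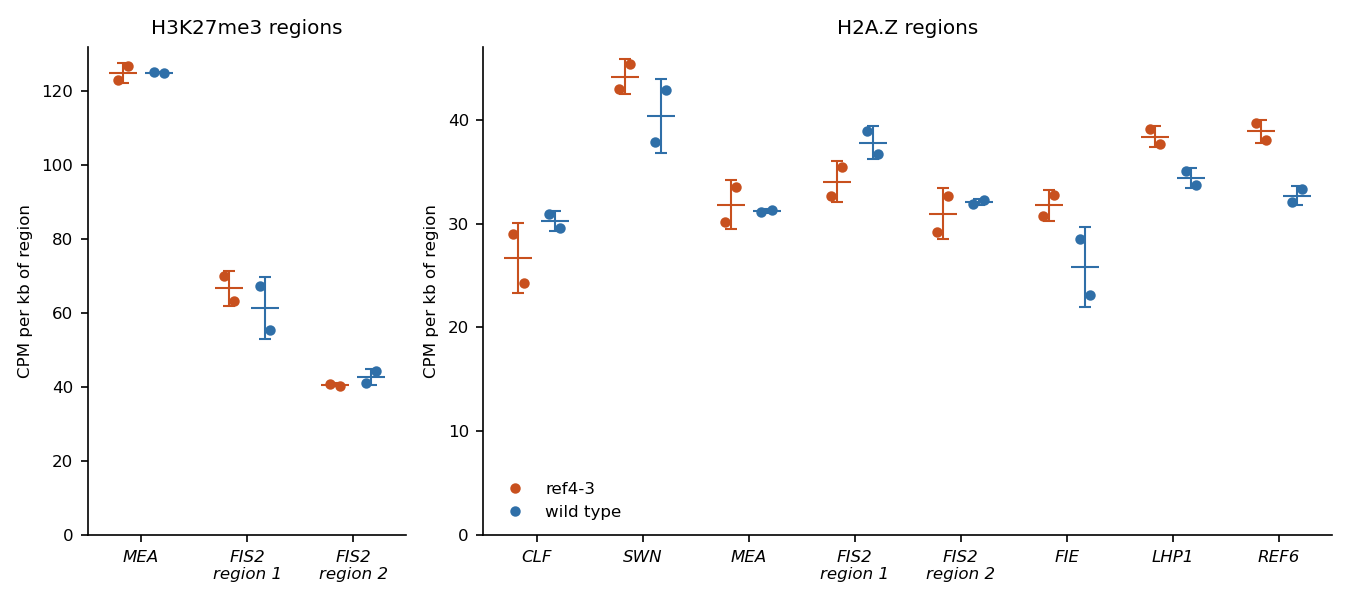
CPM per kb of region in each library, for the 3 H3K27me3 and the 8 H2A.Z regions of these genes (points, libraries; horizontal line and bar, mean and SD, n = 2; orange, *ref4-3*; blue, wild type). *MEA* stands at 123 and 127 in *ref4-3* and at 125 and 125 in wild type for H3K27me3, about 3 times the level of the second *FIS2* region. For H2A.Z, *SWN* is highest in both genotypes.

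Levels were compared between genes per length of region, without subtraction of input. Background at each locus is thus part of these levels, and its share was not tested. The regions differed in length, and the part of length in the levels per kb was not tested. For H3K27me3, the level on *MEA* was 125 ± 2.70 CPM per kb in *ref4-3* and 125 ± 0.0319 in wild type (SD, n = 2 each), which placed it at percentile 76.2 of all H3K27me3 regions. The first *FIS2* region followed, at 66.6 ± 4.74 CPM per kb in *ref4-3* and 61.2 ± 8.40 in wild type, percentile 43.2. The second *FIS2* region was lowest, at 40.5 ± 0.405 CPM per kb in *ref4-3* and 42.6 ± 2.26 in wild type, percentile 19.2. These 3 levels were farther apart than the spread of their replicates, a spread that does not hold differences in background between loci. Such a level is therefore not read as an amount of the mark. On the leaf gene *RBCS1A*, the H3K27me3 region of 400 bp stood at percentile 82.9 and that of 200 bp at percentile 24.0.

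For H2A.Z the highest level per kb was that of *SWN*, with 44.2 ± 1.65 CPM per kb in *ref4-3* and 40.4 ± 3.53 CPM per kb in wild type (SD, n = 2 here and for the other genes), percentile 67.1 of all H2A.Z regions. *REF6* had 38.9 ± 1.09 CPM per kb in *ref4-3* and 32.7 ± 0.921 CPM per kb in wild type, and *LHP1* had 38.4 ± 1.00 CPM per kb in *ref4-3* and 34.4 ± 0.995 CPM per kb in wild type. In *ref4-3* these neighbours differed by less than their spread, at percentiles 43.6 (*REF6*) and 46.1 (*LHP1*) of the mean over all 4 libraries. The short *FIS2* region had 34.1 ± 1.96 CPM per kb in *ref4-3* and 37.8 ± 1.63 CPM per kb in wild type. *MEA* had 31.8 ± 2.37 CPM per kb in *ref4-3* and 31.2 ± 0.175 CPM per kb in wild type, and the long *FIS2* region had 31.0 ± 2.45 CPM per kb in *ref4-3* and 32.1 ± 0.281 CPM per kb in wild type. The bodies of the 2 genes with H3K27me3 thus had nearly equal H2A.Z levels per kb, both at percentile 23.7. The lowest means over all 4 libraries were those of *FIE*, with 31.8 ± 1.46 CPM per kb in *ref4-3* and 25.8 ± 3.85 CPM per kb in wild type, and *CLF*, with 26.7 ± 3.38 CPM per kb in *ref4-3* and 30.3 ± 0.984 CPM per kb in wild type. Their percentiles were 12.6 for *FIE* and 11.4 for *CLF*. *FIE* was above *CLF* in *ref4-3* and below it in wild type, and their libraries did not overlap in either genotype. Both regions were counted in part only through the genotype where they were higher. The H2A.Z regions of *MEA* and the body of *FIS2*, at 3400 and 3000 bp, were at percentiles 97.9 and 97.0 of region length. Those of *SWN*, *LHP1* and the start of *FIS2* were 400 bp long, at percentile 14.1. The part of region length in this ranking was not tested.

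Sequence features that the choice of genes did not use were then described. In Arabidopsis, TRB proteins bind the telobox, AAACCCTA, and can recruit PRC2 there. BPC proteins bind GA repeats, searched here as GAGAGA, and also contact PRC2. The zinc fingers of REF6 recognise CTCTGCTC, CTCTGCTT, CTCTGTTC and CTCTGTTT. Each motif was searched on both strands, with overlapping matches counted. The windows shown hold the telobox matches within the first 600 bases of the genes (capitals, here in the reverse orientation), all in UTR sequence, and are given so that the sites behind the counts can be located.
CLF chr2:9955113-9955142: gcccaaacaaaTAGGGTTTaagagcccatt
CLF chr2:9955446-9955475: agataaattttTAGGGTTTataacgacccg
EMF2 chr5:20823805-20823834: tttctcacaatTAGGGTTTtttttttcttc
MSI1 chr5:23556052-23556081: gagatctgtttTAGGGTTTtgccttgttct

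Teloboxes were found in the first 500 bases of *CLF*, *EMF2* and *MSI1*, and in 16.7% of all 27444 protein-coding genes. In the window from 250 bases before to 50 after the start, *CLF* was the member with a match, against 6.22% of all genes. The second *CLF* telobox lay inside its H2A.Z region. Over the whole gene 7 of the 10 genes had 0 telobox matches, both with H3K27me3 (*MEA* and *FIS2*) and without it (*SWN*, *VRN2*, *FIE*, *LHP1* and *REF6*). Among all protein-coding genes of 4000 to 6100 bp, a range that includes *MEA* and *FIS2*, 36.8% held at least 1 match. GA repeats were found in the first 500 bases of 7 of the 10 genes and of 64.2% of all protein-coding genes.

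The windows with the REF6 motif (capitals) in the first 600 bases are shown because *REF6* itself carries the motif that its product reads. The third *REF6* window is coding sequence and lies inside its H2A.Z region, as the *SWN* window, in UTR, lies inside that of *SWN*.
SWN chr4:886623-886652: gattgcggaaaAAGCAGAGagagagagaaa
REF6 chr3:17935298-17935327: acaattttttcCTCTGTTTctttaatccaa
REF6 chr3:17935320-17935349: taatccaataaAAACAGAGagacctaagaa
REF6 chr3:17935610-17935639: tggcggtttcaGAGCAGAGtcaagatgtgt

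Over the whole gene, *REF6* held 5 matches to the REF6 motif, *CLF* and *SWN* held 2 each and *EMF2* held 1. *MEA* and *FIS2* held 0, as did *VRN2*, *FIE*, *MSI1* and *LHP1*. Of the 2428 protein-coding genes of 4000 to 6100 bp, 77.3% held at least 1 match. In the first 500 bases the motif was present in 23.1% of all protein-coding genes. A match describes the letters only and is not evidence of binding.

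The genes nearest to *MEA* and *FIS2* in their pattern were sought among the 7665 genes with both marks, by Euclidean distance over 8 levels, the log2 CPM per kb in the 4 libraries of each mark. Nearest to *MEA* were AT5G25850 at a distance of 0.16, AT5G60470 at 0.18 and *WRKY61* at 0.19. Nearest to *FIS2* were AT3G26934 at 0.19, *NIP1;2* at 0.20 and AT1G35490 at 0.21. None of these 6 genes was another of the Polycomb genes examined here. Few of those genes are among the 7665, so their absence says little.

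A further 35 genes that work with or against these were examined in 5 lists: PRC1 and H3K27me3 readers (8 genes), PRC2 partners (14), relatives of *MSI1* (4), other H3K27 demethylases (4) and opposing genes of the trithorax and remodelling type (5). H3K27me3 regions lay on 6 of the 35 genes, and 1 of these was called lower in *ref4-3* and 0 higher, against 13% of all H3K27me3 regions called. H2A.Z regions lay on 23 of the 35, of which 2 were called higher and 0 lower, against 4.28% of all H2A.Z regions. The median log2 fold change was −0.00098 for the 6 H3K27me3 regions and −0.0012 for the 23 H2A.Z regions, close to the 0.00029 and −0.0012 over all regions.

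The H3K27me3 call was at *ULT1*, a trithorax-type SAND domain protein that opposes Polycomb silencing. It had 82.4 and 68.0 CPM of H3K27me3 in *ref4-3*, against 95.1 and 101 CPM in wild type. Both *ref4-3* libraries were lower, and they also differed from each other. The log2 fold change was −0.40 (SE 0.076, FDR 7.82e-06 by edgeR's exact test), and without the second *ref4-3* replicate it was −0.25 (FDR 0.0127), which is below 1.2-fold and no longer a call. H2A.Z on *ULT1* was at 73.4 and 74.9 CPM in *ref4-3*, against 75.9 and 73.2 CPM in wild type (log2 fold change −0.0069, FDR 0.995 by edgeR's exact test).

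The next smallest FDRs for H3K27me3 belonged to *EMF1* and AT3G23060. *EMF1*, a plant-specific protein that works with PRC1, had 416 and 413 CPM in *ref4-3*, against 376 and 358 CPM in wild type. Both *ref4-3* libraries were higher, by 0.18 on the log2 scale (SE 0.039, FDR 0.000132 by edgeR's exact test), which is under the 1.2-fold threshold. AT3G23060, annotated as a RING/U-box protein, had 152 and 162 CPM in *ref4-3*, against 140 and 137 CPM in wild type (log2 fold change 0.18, SE 0.054, FDR 0.00645 by edgeR's exact test), also without overlap and under the threshold. The other 3 of the 6 were the PRC2 partners *VIN3*, *VEL2* and *VEL3*, named after their values were seen, with FDRs from 0.0636 to 0.838 by edgeR's exact test.

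The H2A.Z calls were both in the list of PRC1 and readers. *RING1A*, a ubiquitin ligase of PRC1, had 39.7 and 38.7 CPM of H2A.Z in *ref4-3*, against 31.4 and 31.4 CPM in wild type. The groups were well apart, and the log2 fold change was 0.32 (SE 0.092, FDR 0.0184 by edgeR's exact test). *SHL*, which reads H3K27me3 through its BAH domain, had 21.1 and 20.4 CPM in *ref4-3*, against 16.5 and 15.0 CPM in wild type (log2 fold change 0.41, SE 0.13, FDR 0.0368 by edgeR's exact test). Its groups did not overlap either. Neither call held with DESeq2, where the FDR was 0.856 for *RING1A* and 0.929 for *SHL*. Without the first *ref4-3* replicate, the first wild-type replicate or the second wild-type replicate the FDR was 0.0748, 0.224 and 0.269 for *RING1A* and 0.117, 0.156 and 0.475 for *SHL* by edgeR's exact test.

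The third smallest FDR for H2A.Z was that of AT5G46910, annotated as a jumonji family protein, with 20.8 and 16.2 CPM in *ref4-3*, against 20.7 and 23.9 CPM in wild type (log2 fold change −0.26, FDR 0.206 by edgeR's exact test). The groups overlapped through the first *ref4-3* replicate, and without it the region was called lower (log2 fold change −0.46, FDR 0.0428). All 4 relatives of *MSI1* had an H2A.Z region, and so did 3 of the 4 other demethylase genes, against 73.2% of all protein-coding genes. *MSI1* itself had an island only in the list of the first *ref4-3* replicate. Among these relatives and demethylase genes there were 0 H2A.Z calls in the full comparison.

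**Figure D4:**
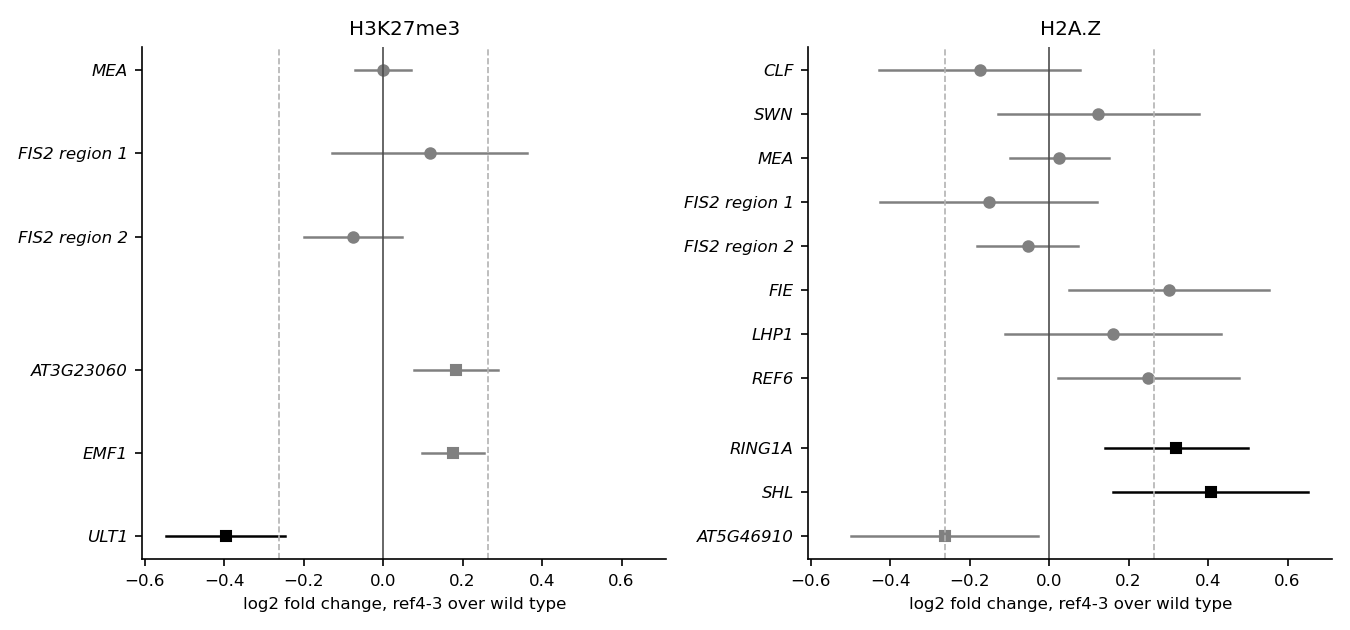
Log2 fold change of *ref4-3* over wild type with its 95% interval, for regions of the 10 genes (circles) and for the 3 pathway genes with the smallest FDR per mark (squares); black, called; grey, not called; dashed lines, 1.2-fold. All circles are grey, and the called squares are *ULT1* at −0.40 for H3K27me3 and *RING1A* at 0.32 and *SHL* at 0.41 for H2A.Z.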

How the data were processed

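The authors trimmed reads with fastp 0.23.2, mapped them to TAIR10 with Bowtie2 (2.2.1 in the submitters' processing notes, a different release in the methods), handled alignments with SAMtools 1.17 and called islands with epic2 in bins of 200 bp. They counted fragments with summarizeOverlaps over the parts of genes inside the joined islands of both genotypes, if at least 200 bp long. The deposited counts are fragments per region and library, with no normalization and no subtraction of input, and per the file headers duplicates had been removed. The deposited island lists give a score, used here in 1 alternative to leave out low-scoring islands. Other columns of the deposited files were not used.

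Each mark was tested over all its regions with edgeR 4.0.16 in R 4.3.3 (TMM factors, dispersions from the genotypes, exact test, Benjamini-Hochberg FDR). The exact test, FDR and both thresholds follow the study's methods, and the TMM factors and the dispersion model were chosen here. No region was filtered out. The 95% intervals are 1.96 standard errors from the fitted dispersion. Scaling rests on the regions, so a change shared by nearly all of them is not measurable. The marks were scaled separately, so levels were compared within a mark only. The study describes the 2 replicates of a genotype as biological replicates, and they were kept apart. Their chi-square per region ranged from 1.08 to 2.08, with both wild-type values near that of counting error alone. With 2 libraries per genotype, the smallest two-sided p of an exact permutation test is 0.333, so none was run. The code was tested on simulated data.

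The genes and lists were chosen with earlier results of these data known. The text names all 10 genes, and of the other pathway genes those called for either mark or, where fewer than 3 were, the 3 with the smallest FDR. It also names the 3 genes nearest in pattern to each gene with both marks. All gene identifiers matched the TAIR10.1 annotation, and all regions lay inside their genes there. The regions of the 10 genes had 0 near-identical copies elsewhere (blastn 2.17.0, at least 95% identity over 100 bp).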

Additional observations from a re-analysis of the deposited data

How the results depend on the processing

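Under every alternative fit run (quasi-likelihood test, DESeq2, library totals, loess offsets, the filter on low counts, fold thresholds of 1.5 and none, and each library left out), 0 regions of the 10 genes were called in either mark. The filter at a mean count of 200 left 2 of their 8 H2A.Z regions. With loess offsets the log2 fold change of H3K27me3 on *MEA* moved from −0.00043 to −0.065 (FDR 0.0835 by edgeR's likelihood ratio test). That was the smallest FDR of their H3K27me3 regions in any fit. When a library was left out, an arm had 1 sample, assumed to vary like the other genotype. Directions turned in 4 such fits. With libraries left out, the log2 fold change of H3K27me3 on *MEA* ranged from −0.024 to 0.020 (turned without the first *ref4-3* replicate), that of the first H3K27me3 region of *FIS2* from −0.018 (turned without the second wild-type replicate) to 0.26, that of H2A.Z on *MEA* from −0.048 (turned without the second *ref4-3* replicate) to 0.10, and that of the long H2A.Z region of *FIS2* from −0.13 to 0.028 (turned without the first *ref4-3* replicate). The cause was not tested. The genes with H2A.Z numbered 5 at an overlap of 500 bp, which lost *SWN* and *LHP1*, 6 without the low-scoring islands, which lost *FIE*, and 5 to 7 in single-library lists. Among the other pathway genes, the 1 H3K27me3 call became 0 at a threshold of 1.5-fold and 3 with no fold threshold, and ranged from 0 to 1 with libraries left out. The 2 H2A.Z calls became 0 with DESeq2, 1 with the filter on low counts, which leaves *SHL* out, 0 at 1.5-fold, and 0 to 2 with libraries left out. DESeq2 called 34 H2A.Z regions in all, against 1068, and 413 H3K27me3 regions, against 1123. The deviations of same-numbered libraries correlated at 0.073 for H3K27me3 and −0.025 for H2A.Z. Such weak correlations cannot show whether same-numbered samples were handled together. With the replicate block 0 regions of the 10 genes were called in either mark (log2 fold change −0.0010 for H3K27me3 on *MEA*), with 1 and 2 calls among the pathway genes. Depth limits the short regions, where 114 to 213 fragments were counted on *CLF* and *REF6* per library.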
